A study of Mus musculus with 8 samples.

Results

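The transcription factor p53, encoded by Trp53, and 9 genes that it activates directly were followed over the day in epithelial crypts of the mouse colon. The members were chosen by name, as Trp53 and the well-known targets Cdkn1a, Mdm2, Ccng1, Bbc3, Pmaip1, Phlda3, Trp53inp1, Sesn1 and Zmat3. All 10 were among the 14247 genes of the deposited table and among the 13503 genes with a mean of at least 10 normalised counts that were tested. RNA was sequenced from colonic epithelial cells of WT mice at zeitgeber time (ZT) 0, 6, 12 and 18 h, with 2 libraries per time point, where ZT0 is lights on in a cycle of 12 h light and 12 h dark. Per the study's methods, mice were on a C57BL/6 background and aged 2 to 4 months, and crypts were scraped from the EDTA-treated large intestine. The labels name no mutation and no treatment in any group, but they do not tie the libraries to single mice. Figure captions of the study give 3 mice per group for wild-type crypts over the day, against the 2 libraries per time point analysed here. If the libraries of a time point did not come from separate mice, the p-values measure a technical spread.

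In unstressed cells p53 protein is made and destroyed continuously, because the ubiquitin ligase encoded by Mdm2 marks it for degradation. DNA damage and other stresses block this destruction, after which p53 binds paired half-sites near its targets and raises genes for cell cycle arrest, apoptosis, DNA repair and its own restraint. In the intestinal crypt the pathway is known for the response of dividing cells to radiation. Since p53 is controlled mostly as a protein, the values here describe the mRNA of the factor and of its targets, not its activity.

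Sequences around p53 half-sites and around E-boxes are shown because p53 binds the former and the clock factors BMAL1 and CLOCK bind the latter. RefSeq promoter windows of GRCm38.p6, from 250 bases before to 50 bases after each start, were matched for 7 of the 10 members, in 11 windows. The p53 half-site is a pattern of 10 bases that reads the same on both strands. It was found in 5 of these 11 windows, from 5 of the 7 members, and in 8.36% of all 32851 promoter windows. Capitals mark the half-site in these 30-base stretches, written 5′ to 3′ on the strand of the gene:
Cdkn1a, chr17:29090896-29090925, plus strand: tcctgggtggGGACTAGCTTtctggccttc
Cdkn1a, chr17:29090918-29090947, plus strand: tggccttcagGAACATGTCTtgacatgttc
Mdm2, chr10:117710925-117710954, minus strand: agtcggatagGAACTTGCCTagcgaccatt
Ccng1, chr11:40755452-40755481, minus strand: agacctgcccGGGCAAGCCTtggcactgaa
Trp53, chr11:69580274-69580303, plus strand: acccacggaaGGACTTGCCCttacttgtta
Sesn1, chr10:41887256-41887285, plus strand: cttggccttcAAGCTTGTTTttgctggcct

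The stretches of Cdkn1a, Mdm2, Ccng1 and Trp53 lay upstream of every annotated transcript of their gene, and that of Sesn1 lay in an intron, upstream of an alternative start. Among the 7 members with windows, only Cdkn1a held 2 half-site matches, at 73 and 51 bases before the annotated start at position 29090979. The E-box CACGTG, also the same on both strands, was present in 7.15% of all promoter windows and in 2 of the 11 windows of the members. It lay 10 bases into the first exon of Trp53, in the 5′ UTR, and 64 bases before an alternative start of Bbc3, inside the gene, and neither match overlapped a half-site:
Trp53, chr11:69580357-69580386, plus strand: actttcccctccCACGTGctcaccctggct
Bbc3, chr7:16310355-16310384, plus strand: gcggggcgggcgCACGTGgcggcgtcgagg

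These matches describe the letters of the windows and not binding in these cells.

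The libraries held between 14722342 and 25159440 reads in the 7 for which whole reads were recovered, and the mitochondrial share of the values was lowest in ZT12 replicate 1, at 6.68%, and highest in ZT18 replicate 1, at 22.2%. As a list the epithelial markers varied little, with a median deviation between -0.21 and 0.28 on the log2 scale, though Krt18 ran from 5220 to 12540. The medians were -0.19 to 0.28 for differentiated colonocytes and -0.42 to 0.22 for goblet cells. Single genes there varied more, Car1 from 25770 to 156000 and Clca1 from 27210 to 121600. Markers of cells outside the epithelium varied widely, most of all in ZT12 replicate 1 and ZT0 replicate 2. Of 9 smooth muscle markers 7 were in the table, and their summed level was 459 to 762 normalised counts at ZT0, 586 to 725 at ZT6, 1114 to 5304 at ZT12 and 580.2 to 1025 at ZT18, with Acta2 at 0 in 3 libraries. The 8 fibroblast markers summed to 54.6 to 1004 at ZT0, 111 to 162 at ZT6, 228 to 2712 at ZT12 and 129.9 to 138 at ZT18, with Col3a1 at 0 in 2 libraries. ZT12 replicate 1 was the highest library for both lists. Mylk, at 441 or more in every library, made up much of the lower smooth muscle sums. ZT0 replicate 2 was the highest for markers of B and plasma cells, of which 8 of 9 were in the table. Their sum was 6001 there against 3064 to 4392 in the other libraries. Much of it was Xbp1, at 2933 to 3783, which hides larger differences in other markers. Cd79a ran from 1.23 to 378 and Ighm from 4.97 to 918. The median log2 deviation of that list was 4.46 in ZT0 replicate 2. The 8 T cell markers summed to 38.7 to 314 at ZT0, 96.1 to 109 at ZT6, 133 to 160.3 at ZT12 and 179 to 297 at ZT18, with ZT0 replicate 2 and ZT18 replicate 2 the highest. The differences of ZT12 from ZT0 are also given without both ZT0 replicate 2 and ZT12 replicate 1, for the members in which that moved the value by over 1.5 times.

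No member passed the adjusted threshold of 0.05 in any of the tests in limma. This held for the 24 h cosine fit, which called 0.118% of all genes tested, and for the F-test over the 4 time points, which called 0.0889%. Among the 6 contrasts between time points the share called was 0.0444% for ZT6 against ZT0, 0.0667% for ZT12 against ZT0, 0.0444% for ZT18 against ZT6 and 0.0296% for ZT18 against ZT12, and 0% for ZT18 against ZT0 as for ZT12 against ZT6. At an unadjusted p under 0.05 the cosine fit took 1 of 10 members beside 9.15% of all genes, the F-test 1 beside 7.03%, ZT12 against ZT0 1 beside 9.96%, and ZT18 against ZT6 0 beside 6.71%. The gene was Trp53inp1 each time, and 1 in 10 is close to those shares of all genes. The fitted amplitude, measured from mean to peak in log2 units, had a median of 0.21 over the members and 0.23 over all genes tested, and 4 of the 10 members lay above the latter. In 7 of 10 members the spread between the libraries of a time point exceeded the spread between the means of the time points. Means vary less than single libraries even without an effect of time. The share of all genes for this count was not computed, so it cannot be read as a trait of the members.

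**Figure D1:**
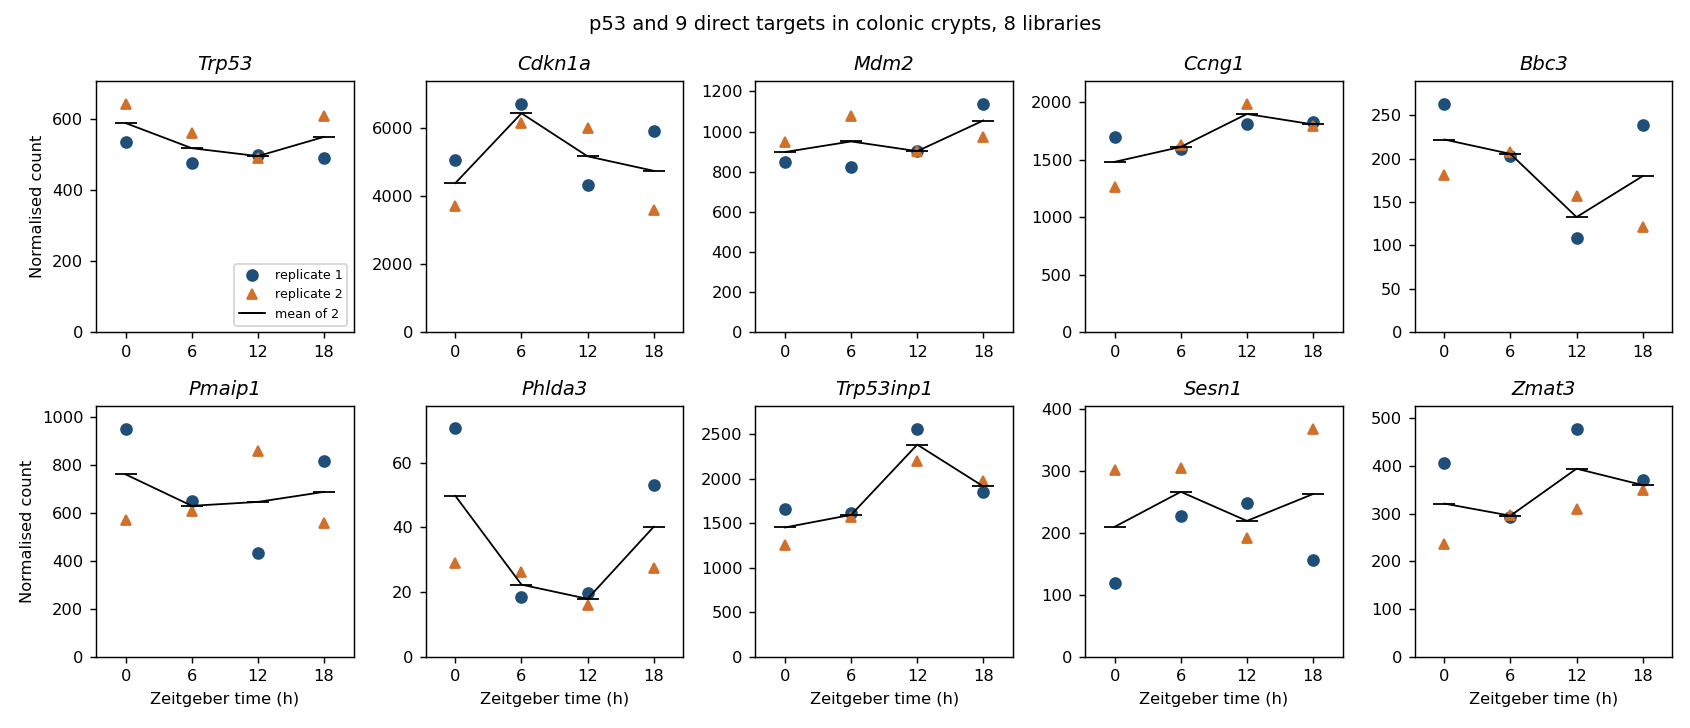
Normalised counts (y axis, from 0) of Trp53 and 9 targets against zeitgeber time in hours, with circles for replicate 1, triangles for replicate 2 and a line through the means of 2 libraries. Trp53inp1 is highest in both ZT12 libraries, and in most other panels the libraries of a time point lie as far apart as the means.

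Trp53 itself had the smallest ratio of highest to lowest library among the members. Its normalised counts were 534 and 643 in the ZT0 libraries, 476 and 560.3 in the ZT6 libraries, 500.0 and 491 in the ZT12 libraries, and 491 and 608 in the ZT18 libraries, for replicates 1 and 2. That ratio was 1.35, and both ZT12 libraries lay below both ZT0 libraries. The difference of ZT12 from ZT0 was -0.24 on the log2 scale, with a 95% interval from -0.71 to 0.22 (limma adjusted p = 0.712). It was -0.11 without ZT0 replicate 2, the highest library, -0.37 without ZT0 replicate 1, and -0.12 without both ZT0 replicate 2 and ZT12 replicate 1. Between ZT18 and ZT6, where the libraries overlapped, it was 0.08 (interval -0.38 to 0.55). The amplitude of its cosine fit was 0.13 ± 0.10 (SE, 8 libraries; limma adjusted p = 0.796).

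Mdm2 and Ccng1, both known for restraining p53, did not pass the test. Mdm2 encodes the ubiquitin ligase that binds and destroys p53. It was at 850.2 and 946 in the ZT0 libraries, 824 and 1077 in the ZT6 libraries, 902 and 903 in the ZT12 libraries, and 1138 and 972 in the ZT18 libraries. The libraries of ZT12 lay between those of ZT0, and its amplitude of 0.08 ± 0.10 was the smallest of the members. Its difference between ZT12 and ZT0 was 0.01 (95% interval -0.42 to 0.44), a value whose sign turned under several other settings, and 0.09 without both ZT0 replicate 2 and ZT12 replicate 1.

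Ccng1 encodes cyclin G1, which recruits the phosphatase PP2A to MDM2. Its levels of 1699 and 1266 at ZT0 and 1598 and 1629 at ZT6 were below all of the later values, 1812 and 1988 at ZT12 and 1826 and 1791 at ZT18. ZT12 exceeded ZT0 by 0.37 (95% interval -0.04 to 0.78, limma adjusted p = 0.526) and ZT18 exceeded ZT6 by 0.16 (interval -0.24 to 0.57), neither past the threshold. The amplitude was 0.20 ± 0.09, with a fitted peak at 13.6 h (limma adjusted p = 0.597). ZT0 replicate 2 was the lowest library, and without it the difference of ZT12 from ZT0 was 0.16, or 0.23 without ZT12 replicate 1 as well. It was 0.58 without ZT0 replicate 1.

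Cdkn1a encodes p21, the inhibitor of cyclin-dependent kinases that arrests the cell cycle after p53 is activated. Its normalised counts were 5071 and 3708 in the ZT0 libraries, 6724 and 6171 in the ZT6 libraries, 4343 and 6016 in the ZT12 libraries, and 5919 and 3585 in the ZT18 libraries. Both ZT6 libraries were above all others, the libraries of ZT0 and ZT12 overlapped, and those of ZT18 differed by 1.65-fold. The difference of ZT12 from ZT0 was 0.24 (95% interval -0.38 to 0.86) and that of ZT18 from ZT6 was -0.48 (interval -1.11 to 0.14, limma adjusted p = 0.830). The former was 0.0022 without ZT12 replicate 2 and 0.012 without ZT0 replicate 2, against 0.46 without ZT0 replicate 1 and 0.47 without ZT12 replicate 1. The latter was -0.85 without ZT18 replicate 1 and -0.12 without ZT18 replicate 2. A gene on the opposite strand, AC167363.2, overlaps exons of Cdkn1a, and whether reads were counted by strand is not given in the sources used here.

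The BH3-only proteins PUMA and NOXA, encoded by Bbc3 and Pmaip1, bind anti-apoptotic members of the BCL-2 family and so start apoptosis. Bbc3 was at 263 and 181 in the ZT0 libraries, 203 and 208 in the ZT6 libraries, 109 and 157 in the ZT12 libraries, and 238 and 121 in the ZT18 libraries. Both ZT12 libraries were below both ZT0 libraries and both ZT6 libraries, but ZT18 replicate 2 was as low as they were. The difference of ZT12 from ZT0 was -0.74 (95% interval -1.59 to 0.12, limma adjusted p = 0.545), and it ranged from -1.01 without ZT0 replicate 2 to -0.45 in edgeR on 7 libraries. Without ZT18 replicate 1 or ZT18 replicate 2, its difference of ZT18 from ZT6, -0.27 with all libraries, was -0.75 or 0.21.

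Pmaip1 was at 952 and 569 in the ZT0 libraries, 651 and 608 in the ZT6 libraries, 434 and 858 in the ZT12 libraries, and 816 and 559 in the ZT18 libraries. Its highest and its lowest libraries, ZT0 replicate 1 and ZT12 replicate 1, differed by 2.20-fold in normalised counts, and at ZT0, ZT12 and ZT18 the libraries of a time point were 1.46- to 1.98-fold apart. The difference of ZT12 from ZT0 was -0.27 (95% interval -1.08 to 0.54). Leaving out ZT12 replicate 2 gave -0.76, and leaving out ZT12 replicate 1 gave 0.22. It was -0.64 without ZT0 replicate 2, 0.10 without ZT0 replicate 1, and -0.15 with both ZT0 replicate 2 and ZT12 replicate 1 left out.

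Phlda3 encodes a pleckstrin homology protein that keeps the kinase AKT from the membrane. It was the lowest member by normalised count, at 70.5 and 28.9 in the ZT0 libraries, 18.5 and 26.1 in the ZT6 libraries, 19.7 and 16.1 in the ZT12 libraries, and 52.97 and 27.3 in the ZT18 libraries. Every library of ZT0 and ZT18 was above every library of ZT6 and ZT12, and ZT0 replicate 1 and ZT18 replicate 1 were the highest of all. The fitted amplitude of 0.75 ± 0.32 was the largest of the members, peaking at 22.0 h in the fit (limma adjusted p = 0.602). The difference of ZT12 from ZT0 was -1.30 (95% interval -2.81 to 0.22), and without ZT0 replicate 1 it was -0.67, while it was -2.06 without both ZT0 replicate 2 and ZT12 replicate 1. Only 14 to 62 reads lie behind its value in each of the 7 libraries with recovered reads.

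Trp53inp1 encodes a stress protein that binds p53 in nuclear bodies and takes part in autophagy. It was at 1653 and 1249.9 in the ZT0 libraries, 1613 and 1572 in the ZT6 libraries, 2561 and 2199.8 in the ZT12 libraries, and 1847 and 1975 in the ZT18 libraries. Both ZT12 libraries were above the other 6, and both ZT18 libraries were above those of ZT0 and ZT6. ZT12 exceeded ZT0 by 0.72 (95% interval 0.31 to 1.14), at an unadjusted p of 0.0033 and an adjusted p of 0.343 in limma, and it exceeded ZT6 by 0.58 (unadjusted p 0.012, adjusted 0.705). Its amplitude was 0.38 ± 0.09, with a fitted peak at 13.3 h and a limma adjusted p of 0.385 (unadjusted 0.0047).

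In count tests on the reads recovered from 7 libraries, without ZT0 replicate 1, the call of Trp53inp1 depended on the tool. ZT0 was then represented by replicate 2 alone, its lowest library, and ZT12 exceeded ZT0 by 0.93 in DESeq2. DESeq2 gave an adjusted p of 0.0017 for the cosine fit, 0.014 over the 4 time points and 0.0075 for ZT12 against ZT0, and called no other member in these 3 tests. It called 2.81%, 2.87% and 1.79% of all genes there. With edgeR none of these 3 tests called Trp53inp1, but edgeR also called far fewer of all genes there than DESeq2 did. The highest library of Trp53inp1, ZT12 replicate 1, was the one with the most smooth muscle and fibroblast RNA, and its lowest, ZT0 replicate 2, the one with the most B cell RNA. Without both, ZT12 exceeded ZT0 by 0.41 in place of 0.72 and the amplitude was 0.24. Leaving out its highest and lowest libraries lowers the difference whatever cells they held. It was 0.52 without ZT0 replicate 2 and 0.61 without ZT12 replicate 1, against 0.92 without ZT0 replicate 1 and 0.83 without ZT12 replicate 2. The part of these cells in the result was not tested, nor was that of the mitochondrial share. That share was lower at ZT12 (6.68% and 7.85%) than in the other 6 libraries (9.80% to 22.2%). With values scaled to the total outside the mitochondrial genome the difference was 0.69.

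Sesn1 encodes a sestrin, a protein that lowers mTORC1 activity under stress. Its levels were 119 and 301 in the ZT0 libraries, 228 and 306 in the ZT6 libraries, 248 and 191 in the ZT12 libraries, and 157 and 369 in the ZT18 libraries. The libraries of ZT0 were 2.53-fold apart and those of ZT18 2.35-fold, and both time points spanned the values of ZT12. The difference of ZT12 from ZT0 was 0.20 (95% interval -0.92 to 1.32), -0.47 without ZT0 replicate 1 and 0.87 without ZT0 replicate 2. Without ZT12 replicate 1 it was 0.013, and without that library and ZT0 replicate 2 it was 0.68.

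Zmat3 encodes an RNA-binding zinc finger protein that acts on splicing and mRNA stability. It was at 405 and 237 in the ZT0 libraries, 293 and 298 in the ZT6 libraries, 478 and 310.1 in the ZT12 libraries, and 371 and 349 in the ZT18 libraries. Both ZT18 libraries were above both ZT6 libraries, by 0.28 on average (95% interval -0.41 to 0.97), while those of ZT0 and ZT12 overlapped. ZT12 replicate 1 was the highest and ZT0 replicate 2 the lowest library, and the difference of ZT12 from ZT0 was 0.31 with both and -0.38 without both.

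**Figure D2:**
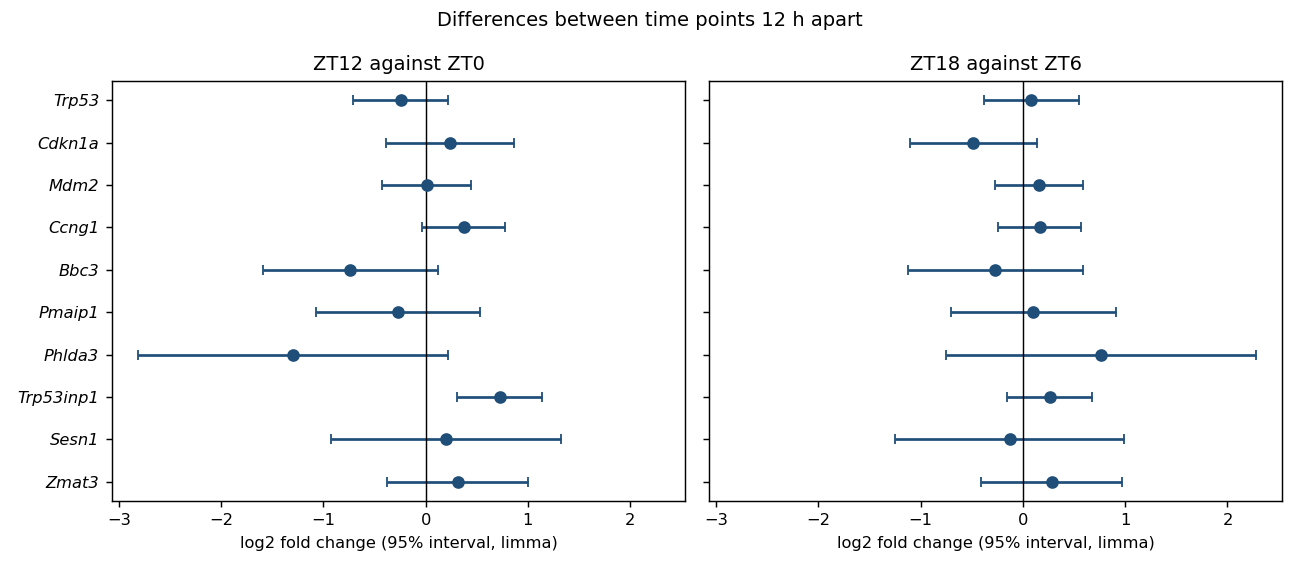
Log2 fold change (x axis) of each member for ZT12 against ZT0 (left) and ZT18 against ZT6 (right), as points with 95% intervals from limma over 8 libraries. Of the 20 intervals shown, only that of Trp53inp1 for ZT12 against ZT0, from 0.31 to 1.14, leaves out 0. The intervals are not adjusted for the number of genes tested, and 9.96% of all genes had an unadjusted limma p under 0.05 for ZT12 against ZT0.

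Between ZT0 and ZT12, 2 members did not overlap and were higher at ZT12 (Ccng1 and Trp53inp1), beside 20.7% of all genes, and 3 did not overlap and were lower (Trp53, Bbc3 and Phlda3), beside 20.3%. Between ZT6 and ZT18 the libraries of 4 members were higher without overlap at ZT18 (Ccng1, Phlda3, Trp53inp1 and Zmat3), beside 19.2%, and those of Cdkn1a were lower, beside 18.8%. The median difference of ZT12 from ZT0 over the 10 members was 0.10, with 6 higher and 4 lower, and that over all genes was 0.01. Without ZT0 replicate 2 the members' median was -0.03, with 5 on either side. For ZT18 against ZT6 the medians were 0.13 for the members and -0.01 for all genes. The rank test in the manner of JTK, by exact enumeration, gave the members p-values between 0.114 and 1. The smallest p it can give is 0.019 where a rhythm peaks at a sampled time and 0.114 where it peaks between these. The latter is the value that Ccng1, Phlda3 and Trp53inp1 reached. The test thus had little power to show a rhythm in a single gene. It was run on the members only, so the share of all genes that reach this value is not known.

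**Figure D3:**
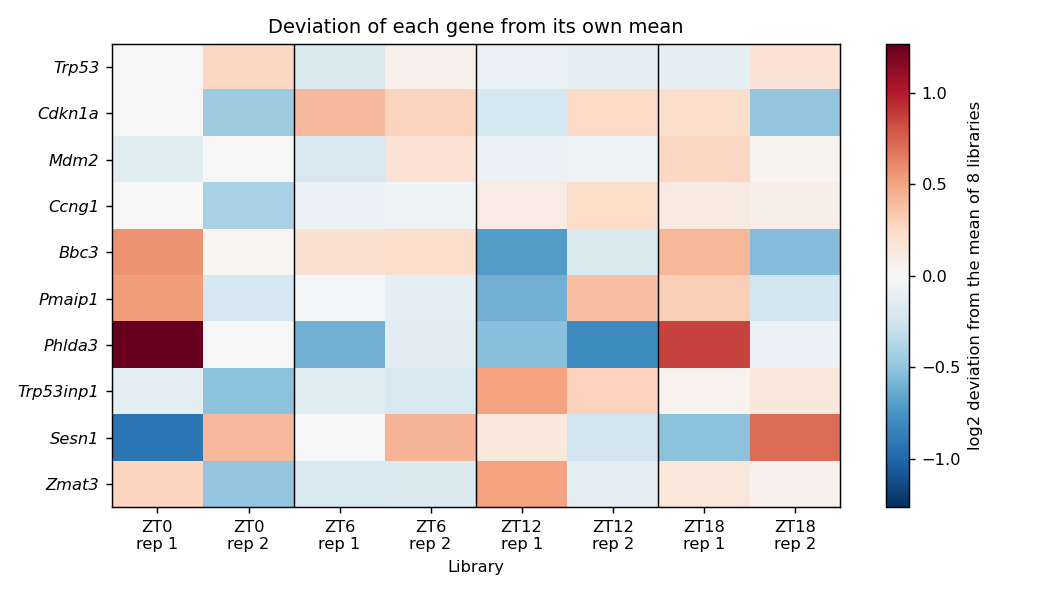
Heat map of the log2 deviation of each member (rows) from its own mean in each of the 8 libraries (columns), red above and blue below the mean, with vertical lines between time points. ZT0 replicate 1 and ZT18 replicate 1 are high for Phlda3 and low for Sesn1, while their partner libraries are not.

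At ZT0 and again at ZT18, 7 of 10 members were higher in replicate 1. At ZT0 4 members were over 1.5-fold apart (Pmaip1, Phlda3, Sesn1 and Zmat3) and at ZT18 also 4 (Cdkn1a, Bbc3, Phlda3 and Sesn1), against 2 at ZT12 (Pmaip1 and Zmat3) and 0 at ZT6. The shares of all genes for these counts were not computed, so the counts cannot be read as a trait of the members. Over all genes tested, same-numbered libraries of different time points did not deviate together (correlations -0.29 to 0.22). Trp53 and Sesn1 were higher in the same library at all 4 time points, and Cdkn1a and Pmaip1 in the other one.

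To ask whether the mRNA of the factor moved with that of its targets, Trp53 was set against each of the 9 targets over the 8 libraries, on the log2 scale and with exact two-sided permutation tests adjusted over the 9 relations. None passed. The strongest was that with Cdkn1a, which was negative, with Pearson's r = -0.76 (exact permutation p = 0.034, adjusted 0.304) and Spearman's rho = -0.71 (exact permutation p = 0.058, adjusted 0.463). Without the 2 libraries farthest from the median of Trp53, ZT0 replicate 2 and ZT18 replicate 2, r was -0.16. Leaving out both narrows the range of Trp53 and takes away the extremes on which the relation rests, whereas leaving out any 1 library gave r from -0.88 to -0.66. With Ccng1 r was -0.63 (rho -0.43, exact permutation p = 0.087 and 0.299, adjusted 0.391 and 0.463) and with Sesn1 it was 0.58 (rho 0.60, exact permutation p = 0.135 and 0.132, adjusted 0.397 and 0.463), and without the same 2 libraries these were -0.35 and 0.12. Leaving out any 1 library gave -0.82 to -0.14 for Ccng1 and 0.44 to 0.79 for Sesn1. With the direct feedback gene Mdm2 r was 0.20 (rho 0.40, exact permutation p = 0.637 and 0.327, adjusted 0.731 and 0.463).

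The genes whose log2 values ran most like those of Trp53 over the 8 libraries, among 11087 genes with a mean of at least 50, were Ccdc92 (r = 0.95), Rnf122 (0.92) and Cntnap1 (0.92). For Cdkn1a they were Ext1 (0.97), Nt5c3 (0.97) and Afap1l1 (0.96). These are descriptions over 8 libraries that share 4 time points.

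Compared per kilobase of exon, as normalised counts per kb, Cdkn1a was the highest member at a mean of 1461 (range over 8 libraries 1009 to 1893), followed by Ccng1 at 484 (360.4 to 566). Then came Trp53inp1 at 283 (193 to 396), Pmaip1 at 249 (159 to 348), Mdm2 at 187 (162 to 224) and Trp53 at 133 (118 to 159). Bbc3 at 87.1 (51.1 to 124), Sesn1 at 60.3 (29.9 to 92.7), Zmat3 at 29.97 (20.7 to 41.8) and Phlda3 at 20.9 (10.4 to 45.2) were the lowest. Among neighbours in this order the ranges were apart between Cdkn1a and Ccng1 and between Mdm2 and Trp53, and the other neighbours overlapped. In this order the gene for p21 exceeded that for p53 in level in every library, while the means of Bbc3 and Pmaip1 lay below and above that of Trp53.

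The wider lists of the pathway held 0 genes called in limma in the cosine fit, the F-test or a contrast. Of 35 other direct p53 targets, all tested, 7 had a cosine p under 0.05 before adjustment, beside 9.15% of all genes. For ZT12 against ZT0 it was 6, beside 9.96%. Without overlap, 5 were higher and 12 lower at ZT12 than at ZT0, beside 20.7% and 20.3% of all genes. At ZT18 against ZT6, 11 were higher and 8 lower without overlap, beside 19.2% and 18.8%. The median amplitude of the 35 was 0.28, and the median difference of ZT12 from ZT0 was -0.11, with 16 higher and 19 lower, and 0.03 without ZT0 replicate 2. The largest amplitude was that of Ak1, an adenylate kinase, at 1.22 (limma adjusted p = 0.586), which was at 14.0 to 23.4 normalised counts from ZT0 to ZT12 and at 5.13 and 1.61 at ZT18. Psrc1, which encodes a spindle protein, was next at 1.11 (limma adjusted p = 0.385), at 74.5 to 146 at ZT0 and ZT6 and 23.1 to 51.3 at ZT12 and ZT18, with no overlap.

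Of the 20 regulators and relatives of p53, 17 were tested, and Cdkn2a, Trp63 and Trp73 were not analysed here. Their median amplitude was 0.17, and 3 had a cosine p under 0.05 before adjustment, beside 9.15% of all genes. The largest was that of Chek1, the kinase CHK1 of the replication checkpoint, at 0.72 (limma adjusted p = 0.420). Its levels were 149 and 97.9 in the ZT0 libraries, 70.2 and 56.6 in the ZT6 libraries, 57.1 and 78.4 in the ZT12 libraries, and 139 and 145 in the ZT18 libraries. Every ZT18 and ZT0 library was above those of ZT6 and ZT12. Atm, the kinase that signals DNA breaks to p53, had an amplitude of 0.45 (limma adjusted p = 0.687), with 123 in ZT0 replicate 2 and 597 in ZT12 replicate 1 as its lowest and highest libraries.

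Among the members and the wider pathway lists, the list whose median lay farthest from that of all genes was that of 15 cell cycle genes which p53 lowers indirectly, through p21 and the DREAM repressor complex. All 15 had a lower mean at ZT12 than at ZT0, and in 14 the libraries did not overlap, against 20.3% of all genes lower without overlap. Their median difference was -0.79, against 0.01 for all genes. An unadjusted p under 0.05 was reached by 11 of 15, beside 9.96% of all genes, but 0 passed the adjusted threshold. For ZT18 against ZT6 12 of 15 were lower, with a median of -0.36. Without overlap, 5 were lower and 2 higher, beside 18.8% and 19.2% of all genes. An unadjusted p under 0.05 was reached by 6, beside 6.71%. The largest amplitudes were those of Cdc25c, the phosphatase that activates CDK1, at 0.74 (limma adjusted p = 0.517), and Mybl2, a factor that drives mitotic genes, at 0.70 (limma adjusted p = 0.465). Cdc25c was at 121 and 117 in the ZT0 libraries, 71.5 and 77.2 in the ZT6 libraries, 46.8 and 66.9 in the ZT12 libraries, and 31.6 and 41.8 in the ZT18 libraries. Mybl2 was at 179.8 and 216 in the ZT0 libraries, 128 and 157 in the ZT6 libraries, 75.8 and 130.3 in the ZT12 libraries, and 289 and 277 in the ZT18 libraries, and so was highest when Cdc25c was lowest. In the same libraries the Cdkn1a values of ZT0 and ZT12 overlapped, with a difference of 0.24 (interval -0.38 to 0.86). That interval leaves room for a rise or a fall of its mRNA, and p21 protein was not measured here. Whether p21 had a part in the lower values of the 15 genes was not tested.

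Without ZT0 replicate 2 and ZT12 replicate 1, 14 of the 15 cell cycle genes were lower at ZT12, with a median of -0.83, and with scaling outside the mitochondrial genome all 15 were, with a median of -0.83. The 9 markers of stem and proliferating cells in the table, of which 3 (Mki67, Top2a and Ccnb1) are also among the 15, summed to 8337 and 10060 in the ZT0 libraries, 6223 and 7691 in the ZT6 libraries, 6538 and 7002 in the ZT12 libraries, and 6041 and 6847 in the ZT18 libraries. Most of that sum was Mki67 and Top2a, and of the 9 markers 4 had a higher and 5 a lower mean at ZT12, the median difference from ZT0 being -0.14. In bulk RNA, fewer cells of a type and less RNA per cell cannot be told apart.

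**Figure D4:**
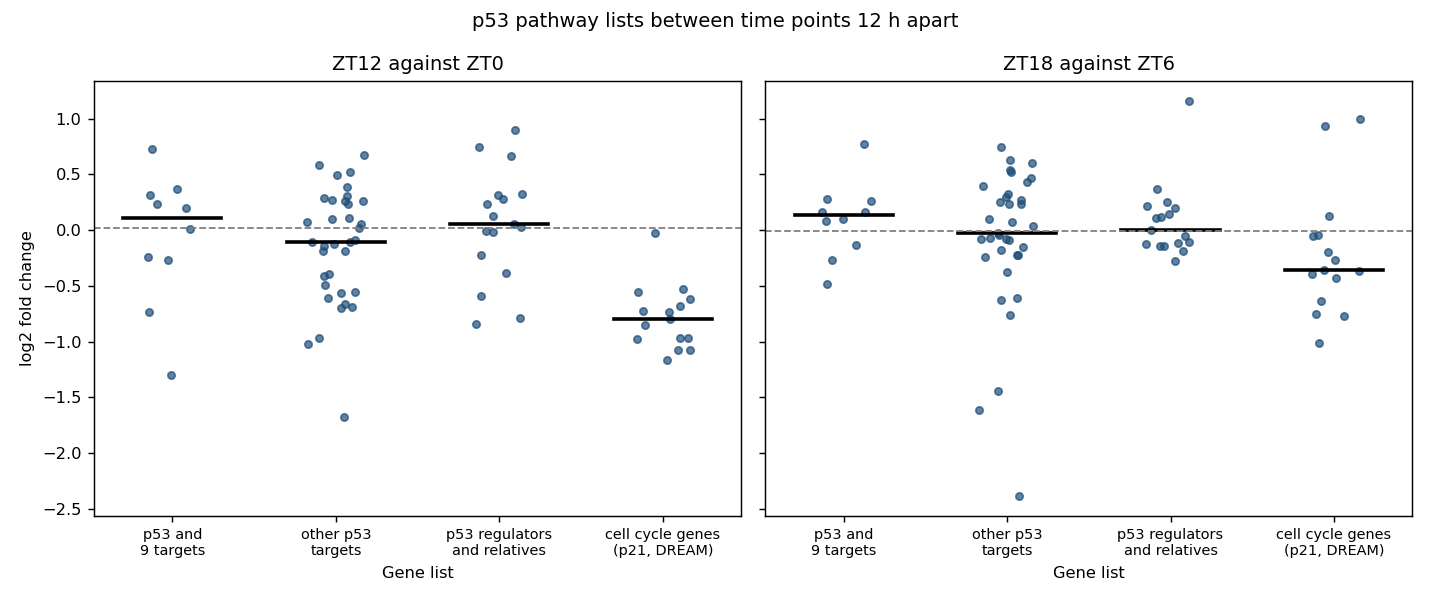
Log2 fold change (y axis) of each tested gene of 4 lists (x axis) for ZT12 against ZT0 (left) and ZT18 against ZT6 (right), with a bar at the median of each list and a dashed line at the median of all genes tested. For ZT12 against ZT0 the median of the cell cycle list is -0.79, and those of the other lists lie between -0.11 and 0.10.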

How the data were processed

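RNA of 8 libraries was sequenced by the authors as paired-end reads, aligned with STAR to GRCm38 and analysed with DESeq2; counting, annotation and strand use are not given in the sources used here. The deposited signal is the read count divided by a size factor per library, called the normalised count. The authors' columns of log2 fold change, SE, test statistic and p-values were not used.

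limma 3.58.1 (R 4.3.3; eBayes with trend) was fitted to log2(normalised count + 1), a scale that understates changes of low genes, for the genes whose mean reached 10, over all 8 libraries, with Benjamini-Hochberg adjustment over all genes tested and a threshold of 0.05. The code was tested on simulated data. Whole reads were recovered in 7 libraries (100% of values within 0.01 of a whole read) and tested with edgeR 4.0.16 and DESeq2 1.42.0, chosen after seeing the data, in place of the tests planned on 8 libraries; in ZT0 replicate 1 the value of 1 read lay so near 1 (0.993) that recovery was not claimed, although its values also look like whole reads. Coordinates and exon lengths came from GENCODE M21, which held 14239 of 14247 identifiers.

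Members and lists were chosen with earlier results of these data known. Named genes are the members, the 2 genes of largest amplitude in each list with any called, and the 3 genes most correlated with Trp53 and with Cdkn1a. The same-numbered libraries of different time points did not deviate together (correlations -0.29 to 0.22), so they were not paired. Pseudocount, filter, scaling, tool and left-out libraries were varied.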

Additional observations from a re-analysis of the deposited data

How the results depend on the processing

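In limma with all libraries 0 members passed, so every call of a member depended on the processing. In DESeq2 on 7 libraries 1 member, Trp53inp1, passed in the cosine fit, 1 over the 4 time points and 1 for ZT12 against ZT0, and the count stayed at 0 in edgeR and in every other setting. With the replicate number as a term (replicate block) the counts were 0 and the amplitude of Trp53inp1 was 0.38 (limma adjusted p = 0.484). Amplitudes have no sign, and 21 of 418 alternative values of fold changes turned sign; the cause was not tested. For ZT12 against ZT0, Mdm2 was -0.0115 with quantile normalisation, -0.0267 with scaling outside the mitochondrial genome, -0.0634 in edgeR and -0.0644 in DESeq2, and -0.0680 to 0.0863 with libraries left out. Pmaip1 was 0.18 in edgeR, 0.19 in DESeq2 and -0.76 to 0.22 with libraries left out. Sesn1 was -0.45 in edgeR, -0.45 in DESeq2 and -0.47 to 0.87 with libraries left out, and Zmat3 -0.38 to 0.70. For ZT18 against ZT6, leaving out 1 library gave -0.0712 to 0.24 for Trp53, -0.0345 to 0.35 for Mdm2, -0.74 to 0.48 for Sesn1, -0.17 to 0.38 for Pmaip1 and -0.75 to 0.21 for Bbc3. The r of Trp53 ranged from -0.0204 to 0.58 with Mdm2 and from -0.41 to 0.11 with Bbc3.

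The spread within time points exceeded the counting error expected from the reads of the 7 libraries in 10 of 10 members, with the smallest ratio in Phlda3 (SD of 0.59 against 0.30, log2). A lone library left in a time point is assumed to vary like the others. The count tests planned on all 8 libraries were not run.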
